A study of Drosophila melanogaster with 6 samples.

Results

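The cytosolic ribosomal protein genes of Drosophila melanogaster and the genes named as their copies were followed in infected adult males, in controls and in flies that overexpress CR33942, a long noncoding RNA. Genes were taken by symbol from the dm6 annotation: every row of the deposited table whose identifier maps to a symbol starting with RpL or RpS and a digit, or with RpLP. This gave 87 of the 17558 genes in the table, of which 86 had reads. RpS12, RpL19, RpL31, RpL27A and RpS10b carry identifiers in that annotation that are not rows of the table, and these 5 genes were not analysed here. The rule reads names only, and the split into main and lower copies reads the mean level. The 87 genes comprised 73 main copies and 14 others, called lower copies or duplicates here, a label that rests on symbols and levels only. A family was 2 or more symbols that differ only by a final lower-case a or b, by a final -1 or -2, or by -like, and its main copy was the gene with the highest mean level. There were 12 such families with 13 lower copies. RpL7-like, RpL24-like and RpLP0-like are counted among the lower copies by name, although they correspond to yeast assembly factors. RpS10a, whose partner RpS10b was not analysed here, is described with the lower copies.

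All flies were adult males taken 12 h after injection of the bacterium M. luteus, with 3 libraries per group. Control flies were Gal80ts; Tub-Gal4/P{CaryP}attP40, that is, they carried the temperature-sensitive Gal4 repressor, the Tub-Gal4 driver and an attP40 landing site. The overexpressing flies are given as Gal80ts; Tub> NANPI, NANPI being the study's name for CR33942. Tub-Gal4 uses a tubulin promoter active in most cells, so the RNA was driven broadly, and strain and overexpression differ together. No uninfected flies enter the comparison. The libraries are bulk, so fewer cells of a type and less RNA per cell cannot be told apart. The labels do not say whether the libraries came from separate groups of flies, and p-values measure only the spread between these libraries.

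Every ribosome holds a single copy of nearly every ribosomal protein, with the stalk proteins as the known exception, and the genes for these proteins are among the most strongly transcribed genes of most cells. In flies, losing a working copy of many of them gives the Minute phenotype of slow growth and short bristles. Transcription and translation of these genes respond to the TOR kinase and to Myc. Several Drosophila genes have a second copy with restricted use, often in the germ line of testis or ovary, and a few -like genes correspond to yeast ribosome assembly factors rather than to ribosomal proteins.

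Reads recovered from the deposited values came to between 17032191 and 19797136 per library, totals that may be too low because the lengths of some genes were fitted. CR33942 itself stood at 18.7, 19.5 and 19.0 FPKM (fragments per kilobase of gene, scaled to library size) in the controls and at 553, 589 and 563 FPKM in the overexpressing libraries (log2 change 4.83 ± 0.05 SE; limma, adjusted p = 5.74e-09). On the second principal component of all tested genes, overexpressing replicate 2 had a score of 17.1, and replicates 1 and 3 had -8.12 and -6.63. The median change of the main copies and several single genes are also given without it. Markers of the spermatocyte and spermatid germ line were present in every library: 22 of 23 had a value above 0 in all 6, and their summed level was 4350.1, 4051 and 4481 FPKM in controls and 4164, 4554 and 4188 FPKM in overexpressing libraries.

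The main copies were abundant and close to each other in level. Of the 100 genes with the highest mean FPKM, 29 were ribosomal protein genes, and of the top 200 there were 61. All 87 genes together held 8.77%, 9.10% and 9.05% of the summed FPKM in control replicates 1 to 3 and 8.81%, 8.33% and 9.30% in overexpressing replicates 1 to 3. As a share of reads, which is not corrected for length, these were 5.48%, 5.63% and 5.66% against 5.50%, 5.21% and 5.78%. The groups overlapped in both measures, and overexpressing replicates 2 and 3 were the lowest and the highest of the 6.

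Mean levels of the 73 main copies ran from 296 FPKM for RpS9 to 3242 FPKM for RpL41, a 10.9-fold range, with quartiles at 653, 794 and 984 FPKM. RpL41, which encodes an exceptionally short peptide of the large subunit, stood at 3219, 3309 and 3495 FPKM in controls and 3192, 2914 and 3324 FPKM in overexpressing libraries. It was followed by RpL23, a large-subunit protein, at 1619.9, 1601 and 1591 FPKM in controls and 1556, 1516 and 1630.1 FPKM in overexpressing libraries. The gap from RpL41 to RpL23 was larger than the spread of either gene. RpS18, a protein of the small-subunit head, stood at 1319, 1335 and 1326 FPKM and at 1273, 1159 and 1327 FPKM. Overexpressing replicate 3 lay among the control values of RpS18, and replicates 1 and 2 lay below them. RpL5 (385 ± 2.75 and 369.9 ± 18.2 FPKM), RpL22 (361 ± 5.87 and 357 ± 13.6 FPKM), RpL28 (353 ± 10.4 and 343 ± 12.3 FPKM) and RpS9 (296 ± 4.63 and 297 ± 20.6 FPKM; control and overexpressing, SD, n = 3 each) were the lowest main copies. RpS9 lay below RpL28 in every library. RpL28 and RpL22 overlapped in both groups, and RpL22 and RpL5 overlapped in the overexpressing libraries but not in the controls.

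**Figure D1:**
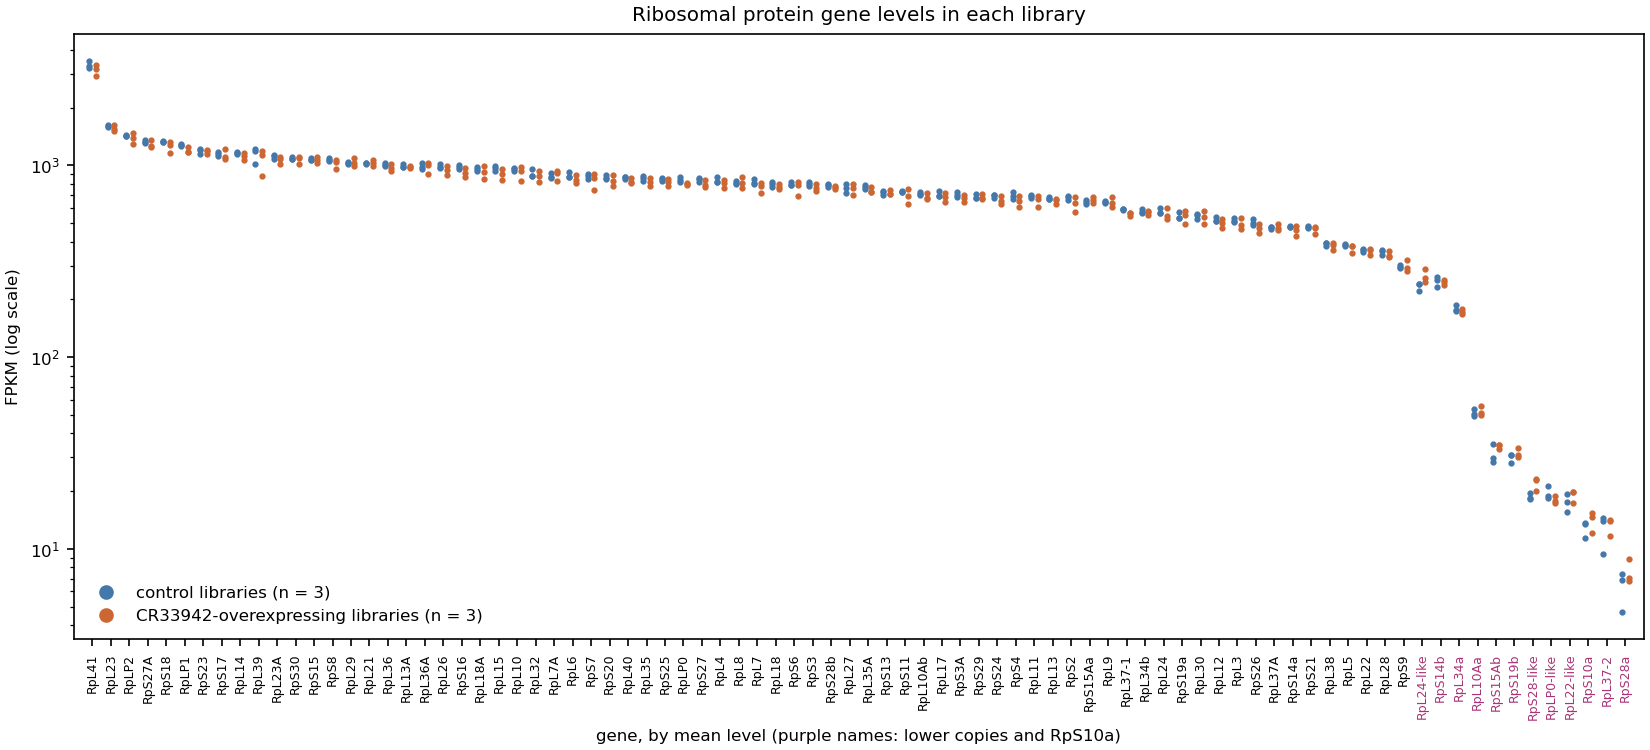
FPKM (log scale) of 84 of the 86 ribosomal protein genes with reads, ordered by mean level, with a point for each of 3 control and 3 CR33942-overexpressing libraries. Main copies form a plateau that ends at RpS9 (mean 296 FPKM), and most lower copies (purple names) lie far below it, down to RpS28a.

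No ribosomal protein gene passed the test between the groups. At an adjusted p under 0.05, 0 of the 86 tested members were called higher by limma (0.844% of all 12326 tested genes were) and 0 lower (1.38% of all tested genes), which makes 0 against 2.22% in either direction. At an unadjusted p under 0.05 there were 3 members, RpS28-like and RpL24-like among them, against 15.7% of all tested genes, and voom on recovered reads called 0 at the adjusted threshold, against 3.73% of all genes, and 1 unadjusted, against 16.2%. Without overexpressing replicate 2, limma called 0 members, against 3.54% of all genes. Groups did not overlap for 7 of 86 members (8.14%), against 20.7% of all tested genes. The 73 main copies leaned slightly low: 67 had a log2 change below 0, with a median of -0.054 beside 0.002 over all tested genes. The libraries' own medians over the main copies varied within groups with an SD of 0.052 on the log2 scale. Without overexpressing replicate 2 the median change was -0.020, with 51 below 0, and after rescaling every library to the same sum it was -0.031, with 53 below 0.

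The intervals limit how large a change these libraries allow. For 72 of the 73 main copies the whole 95% interval of the change lay between 0.8-fold and 1.25-fold. The exception was RpL39, a small protein at the exit tunnel, whose interval ran from 0.766-fold to 1.13-fold. RpL39 stood at 1016, 1188 and 1217 FPKM in controls and at 1134, 884 and 1186 FPKM in overexpressing libraries. Overexpressing replicate 2 was the lowest and control replicate 1 the second lowest. The exons of RpL39 share 8 bases with RpL12 on the opposite strand, and the sources used here do not say whether reads were counted by strand. The largest falls by value among main copies were those of RpS2 (log2 change -0.11 ± 0.07 SE, adjusted p = 0.519) and RpL15 (-0.11 ± 0.06 SE, adjusted p = 0.478; limma), neither past the threshold. Without overexpressing replicate 2 these were -0.05 for RpS2 and -0.06 for RpL15, and RpL39 moved from -0.10 to 0.03.

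**Figure D2:**
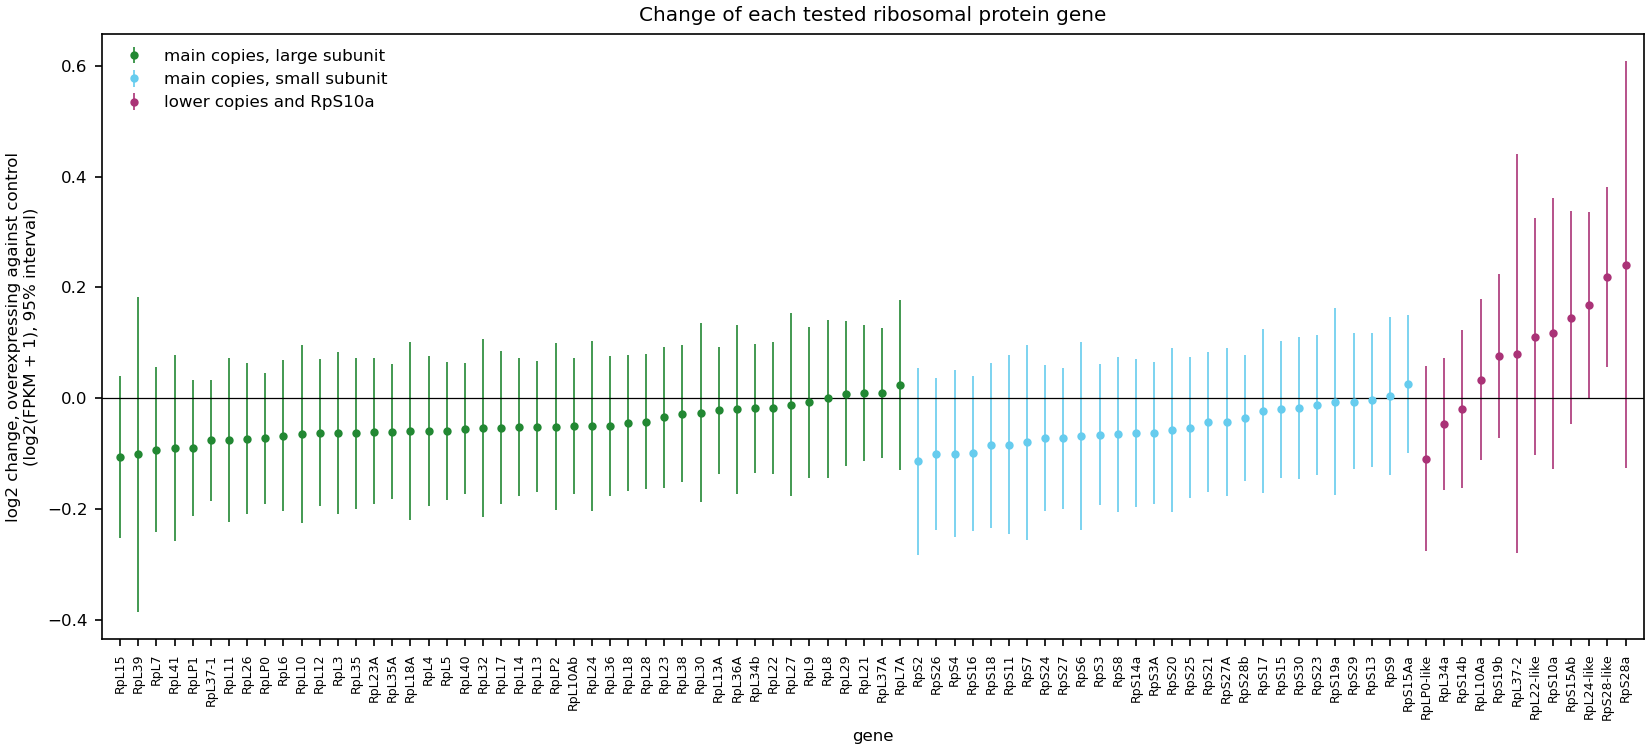
Log2 change of 84 of the 86 tested ribosomal protein genes, overexpressing against control, on the log2(FPKM + 1) scale, with the 95% limma interval from 3 libraries per group. The 72 main copies plotted sit between -0.11 and 0.03, and most lower copies sit above 0 with wider intervals.

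By role, members of each functional site lay at similar small values. The stalk recruits translation factors to the large subunit, and it consists of RpLP0 with RpLP1 and RpLP2, on a base that includes RpL12. RpLP1 stood at 1263, 1281 and 1288 FPKM in controls and 1180.1, 1175 and 1248 FPKM in overexpressing libraries. All 3 overexpressing values were below all 3 controls (log2 change -0.09 ± 0.05 SE, adjusted p = 0.478). RpLP0 behaved alike, at 835, 870.3 and 823 FPKM against 804, 787 and 813 FPKM, again without overlap (-0.07 ± 0.05 SE, adjusted p = 0.563; limma). RpLP2 overlapped between groups, at 1425, 1429 and 1438 FPKM against 1383, 1288 and 1479 FPKM. The ratio of summed RpLP1 and RpLP2 level to RpLP0 level was 3.22, 3.11 and 3.31 in controls and 3.19, 3.13 and 3.35 in overexpressing libraries, and the ranges overlapped.

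RpL5 and RpL11 bind the 5S rRNA of the large subunit and, outside the ribosome, are known in mammals to bind the p53 regulator MDM2. RpL5 stood at 382, 387 and 386 FPKM in controls and at 380.4, 349 and 380.3 FPKM in overexpressing libraries. The groups did not overlap, but overexpressing replicates 1 and 3 lay just below the lowest control, and the change did not pass (log2 change -0.06 ± 0.05 SE; limma, adjusted p = 0.673). Without overexpressing replicate 2 the log2 change of RpL5 was -0.02. RpL11 ranged over 675 to 700.1 FPKM and 607 to 696 FPKM. The 6 proteins listed at the peptide exit tunnel (RpL4, RpL17, RpL23A, RpL26, RpL35 and RpL39) had changes between -0.10 and -0.05 on the log2 scale.

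RpS27A, RpL40 and RpS30 are made as fusions behind ubiquitin or a ubiquitin-like protein. Their log2 changes lay between -0.06 and -0.02, and RpS27A stood at 1316, 1351 and 1322 FPKM against 1264, 1246 and 1365 FPKM. In the small subunit, RpS2, RpS3, RpS23 and RpS15 lie along the mRNA path and decoding site, with changes between -0.11 and -0.01. RpS6, the classical substrate of S6 kinase downstream of TOR, stood at 794, 824 and 793 FPKM in controls and at 793, 692 and 821 FPKM in overexpressing libraries (adjusted p = 0.726; limma). Overexpressing replicates 1 and 3 were close to the controls, and replicate 2 lay below them. The balance of the subunits overlapped between groups: mean FPKM of large-subunit over small-subunit main copies was 1.080, 1.090 and 1.101 in controls and 1.092, 1.088 and 1.092 in overexpressing libraries. The medians of the log2 changes were -0.052 for 44 large-subunit and -0.063 for 29 small-subunit main copies, and -0.051 for the 12 X-linked against -0.055 for the 61 other main copies.

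The main copies moved together from library to library. Overexpressing replicate 2 had the lowest value of all 6 libraries for 66 of the 73 main copies (90.4%), against 20% of all tested genes. Control replicate 2 had the highest value for 42 of them (57.5%; 18.1% of all tested genes) and overexpressing replicate 3 for 22 (30.1%; 16.3%). Within its group, overexpressing replicate 2 lay at a median of 0.923 of the mean of the other 2 libraries over the main copies, and at 0.998 over all tested genes. Among 70 tested mitochondrial ribosomal protein genes that ratio was 0.981, and 20 of the 70 (28.6%) were lowest in that library. The same library was lowest for 6 of 9 tested genes of elongation and release (66.7%) and for 21 of 44 of translation initiation (47.7%). For ribosome assembly and rRNA transcription it was 13 of 45 (28.9%), and for the Xrp1 response and stalled ribosomes 4 of 8 (50%). For TOR and Myc growth control it was 4 of 22 (18.2%), and for transcription factors linked to ribosomal protein promoters 2 of 11 (18.2%). The differences between these sets were not tested. RpS29, a zinc-binding protein of the small subunit, was among the main copies not lowest in that library, at 680.0, 707 and 669 FPKM in the overexpressing libraries.

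When each library's median over the other main copies was taken off, the median within-group SD of a main copy fell from 0.059 to 0.030 on the log2 scale, and it was smaller for 66 of 73 genes. The differences between groups that remained, which this step centres near 0, ran from -0.06 for RpS2 to 0.08 for RpS15Aa. Median deviations of the main copies from their 6-library means were 0.01, 0.05 and 0.01 in the controls and -0.02, -0.10 and 0.04 in the overexpressing libraries. Testis germ line markers deviated by 0.01, -0.09 and 0.07 and by -0.04, 0.09 and 0.003 in the same libraries. The main copies were thus highest in control replicate 2, where the testis list was lowest, and lowest in overexpressing replicate 2, where the testis list was highest. The midgut marker list had median deviations of -0.132 and 0.132 in those libraries, and was highest in control replicate 1 (0.178). The muscle marker list had 0.070 and -0.028 there, and the fat body marker list 0.266 and 0.099. The part of tissue content in this movement was not tested.

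**Figure D3:**
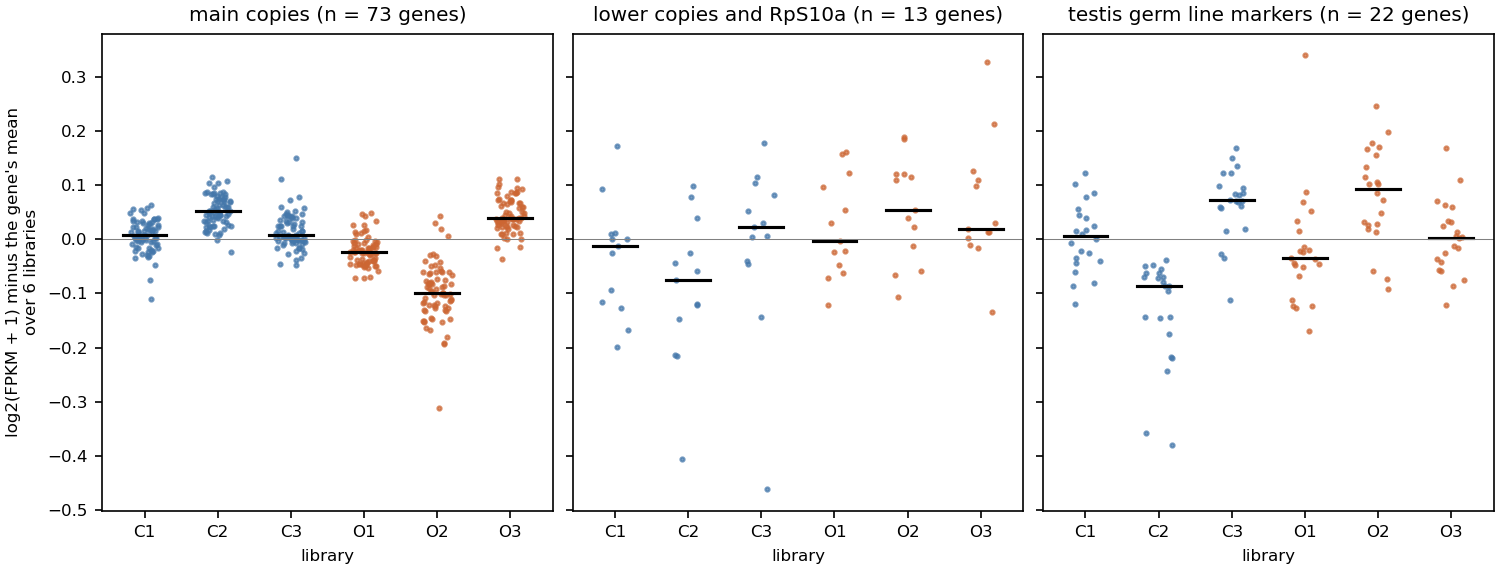
Deviation of each gene's log2(FPKM + 1) from its mean over 6 libraries, for control (C1 to C3) and overexpressing (O1 to O3) libraries, with black bars at the median of each gene set. Main copies shift together, with medians of 0.05 in C2 and -0.10 in O2, while testis germ line markers have medians of -0.09 and 0.09 in the same libraries.

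The lower copies split by level. RpL24-like, RpS14b and RpL34a held between 23.3% and 35.4% of their family's summed FPKM in every library. In the other families whose lower copies had reads, the lower copies, summed within each family, held between 1.56% and 7.68%. Main copies exceeded the summed lower copies by 1.90-fold in the RpS14 family, 2.27-fold in RpL24 and 3.25-fold in RpL34, and by 44.5-fold in RpL37. RpL7-like, the counterpart of the yeast assembly factor Rlp7, is listed at 0 in every library. Its exons overlap CG34164 on the same strand over 98.8% of their length, and CG34164 is listed at 0 as well; the part of this overlap in the zeros was not tested.

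RpS14a and RpS14b lie in tandem on the X chromosome (7933742 to 7934677 and 7934898 to 7935792, plus strand) and are near-identical, so reads can be split between them in ways that the counting decides. RpS14a stood at 482, 480.0 and 478 FPKM in controls and at 463, 431 and 486 FPKM in overexpressing libraries, and RpS14b at 231, 253 and 261 FPKM and at 252, 237 and 247 FPKM. The share of RpS14b was 32.4%, 34.6% and 35.3% against 35.2%, 35.4% and 33.7%, and the ranges overlapped in part. RpL34b and RpL34a, both on chromosome 3R, also overlapped: the share of RpL34a was 23.4%, 23.9% and 23.8% against 23.3%, 23.3% and 23.5%.

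RpL24-like corresponds to yeast Rlp24, which holds the place of RpL24 on the maturing large subunit. The gene lies on chromosome 3R (11430740 to 11431582, minus strand) and stood at 222, 242 and 242 FPKM in controls and at 259, 247 and 289 FPKM in overexpressing libraries. All overexpressing values lay above all controls (log2 change 0.17 ± 0.07 SE, 95% interval 0.001 to 0.336), and the change did not pass after adjustment (limma, adjusted p = 0.315). Without overexpressing replicate 3 the log2 change was 0.10. Its share of the RpL24 family was 28.3%, 28.7% and 29.9% in controls and 32.1%, 32.0% and 32.5% in overexpressing libraries. Its exons share 23 bases with Dtd on the opposite strand. Dtd, named here because of that overlap, rose from 8.40 ± 1.02 to 11.7 ± 0.252 FPKM (SD, n = 3 each; limma, adjusted p = 0.0493), a call kept in 1 of 6 fits without a library (that without control replicate 2, 0.0499; up to 0.160) and not made by voom (0.123) or with replicate number as a block (0.106). Whether Dtd reads enter the RpL24-like values was not tested.

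The groups of RpS28-like did not overlap either. The gene (chromosome 2L, 9436804 to 9437227, plus strand) stood at 18.5, 19.5 and 18.3 FPKM in controls and at 22.8, 23.2 and 20.1 FPKM in overexpressing libraries (log2 change 0.22 ± 0.07 SE, 95% interval 0.057 to 0.382; limma, adjusted p = 0.186). This was the lowest adjusted p of any member. Its exons share 39 bases with CG3769 on the same strand, which stood at 0.399 FPKM in controls and 0.230 FPKM in overexpressing libraries. The main copy, RpS28b, overlapped between groups, at 774, 800.3 and 787 FPKM against 774, 752 and 778 FPKM.

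The share of the lower copies in the RpS28 family, RpS28-like and RpS28a together, was 3.17%, 3.25% and 2.84% in controls and 3.69%, 3.87% and 3.58% in overexpressing libraries. Of the 10 families whose shares are reported here, RpS28 and RpL24 did not overlap between groups, both higher in the overexpressing flies. For levels of single genes, groups did not overlap for 20.7% of all tested genes. No such figure was computed for shares within other gene families, so the 2 cannot be compared directly. In 8 of the 10 the mean share was higher in the overexpressing flies. For RpS19 this rested on overexpressing replicate 2 (5.47%, 4.68% and 5.49% in controls against 5.18%, 6.33% and 5.07%). For RpL37 it rested on control replicate 2 (2.41%, 1.56% and 2.31% against 2.09%, 2.41% and 2.41%). For RpS14 it rested on control replicate 1 (32.4%, 34.6% and 35.3% against 35.2%, 35.4% and 33.7%). The shares are given as a description and were not tested. RpS28a rested on few reads, 108 in all controls and 133 in all overexpressing libraries, and stood at 6.84, 7.39 and 4.70 FPKM against 6.81, 7.05 and 8.83 FPKM. Its log2 change was 0.24 ± 0.16 SE, and 0.07 without control replicate 3.

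**Figure D4:**
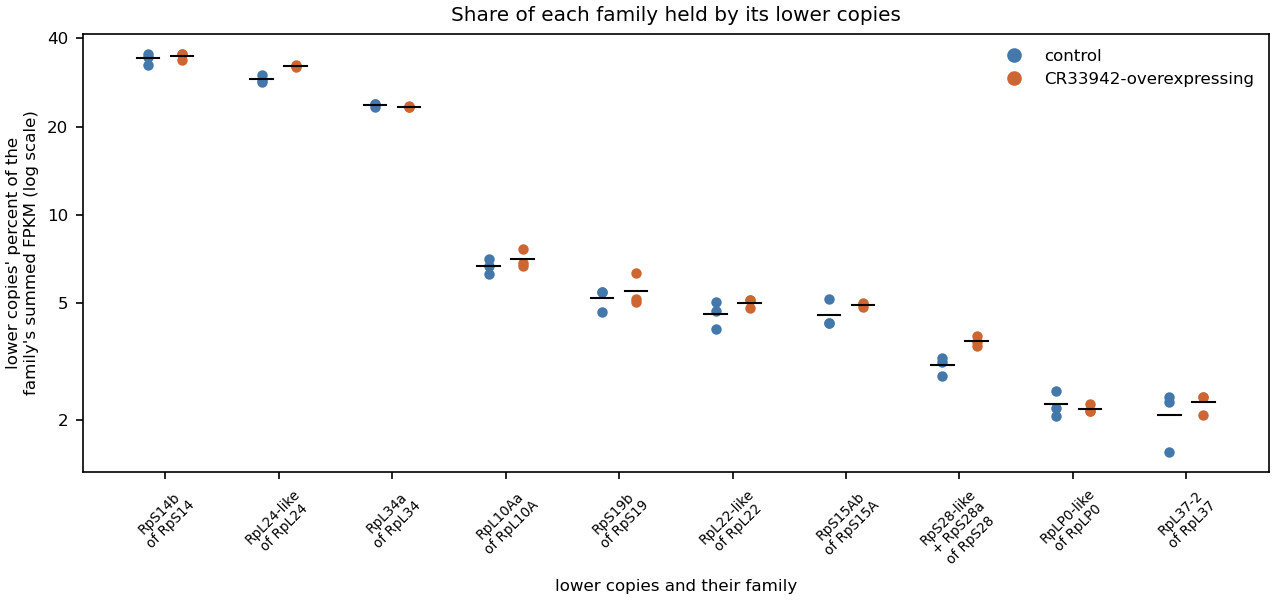
Percent of each family's summed FPKM held by its lower copies (log scale), for 10 families whose lower copies had reads, with a point per library and black bars at the mean of 3 libraries. The shares of RpL24-like and of the lower RpS28 copies do not overlap between groups, and the other 8 families overlap.

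The other duplicates described here overlapped between groups. RpL10Aa stood at 51.2 ± 2.33 and 52.4 ± 3.07 FPKM in control and overexpressing libraries, beside its main copy RpL10Ab at 713 ± 15.1 and 689 ± 25.2 FPKM (SD, n = 3 each). RpS15Ab stood at 28.3, 29.9 and 35.1 FPKM against 34.9, 33.1 and 35.0 FPKM, and RpS19b at 30.7, 28.2 and 30.8 FPKM against 30.2, 33.4 and 31.0 FPKM. Their main copies RpS15Aa and RpS19a had means of 653 and 544 FPKM. RpL22-like, which is known to be used in the testis, stood at 19.4, 15.5 and 17.6 FPKM against 17.3, 19.8 and 19.7 FPKM, at 5.04%, 4.10% and 4.72% of its family against 4.83%, 5.13% and 5.13%. RpL37-2 (14.5, 9.41 and 13.9 FPKM against 11.7, 13.9 and 14.1 FPKM) lay far below RpL37-1.

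RpL37-1, the main copy, was, with RpL5, RpLP0 and RpLP1, among the 4 of 73 main copies (5.48%, against 20.7% of all tested genes) whose groups did not overlap, at 588, 592 and 591 FPKM against 547, 564 and 568 FPKM (log2 change -0.08 ± 0.05 SE; limma, adjusted p = 0.504). RpLP0-like, the counterpart of the yeast assembly factor Mrt4, was the duplicate with the lowest log2 change, -0.11 ± 0.07 SE, from 18.9, 18.4 and 21.3 FPKM to 17.7, 17.3 and 18.9 FPKM (limma, adjusted p = 0.532). Without control replicate 3 it was at -0.05, and RpL34a was lower, at -0.06. RpS10a stood at 13.5, 11.4 and 13.7 FPKM against 14.7, 15.4 and 12.1 FPKM.

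Over the 13 tested duplicates, 10 log2 changes lay above 0 and the median was 0.11, where the main copies had -0.054 and all tested genes 0.002. Limma and voom each called 0 of 13, against 2.22% and 3.73% of all tested genes. At an unadjusted p under 0.05 limma had 3 of 13, against 15.7% of all tested genes. Groups did not overlap for 3 of 13 (23.1%), against 20.7%. The difference between the medians was not tested. The mean log2(FPKM + 1) of main copies exceeded that of duplicates by 4.45, 4.55 and 4.43 in controls and by 4.37, 4.26 and 4.39 in overexpressing libraries. These values did not overlap, and the smallest gap was again in overexpressing replicate 2. The duplicates' median deviations by library were -0.01, -0.08 and 0.02 in controls and -0.004, 0.05 and 0.02 in overexpressing libraries. Control replicate 2 was thus low for duplicates and for the testis list alike. Without control replicate 2 the duplicates' median was 0.036 and without overexpressing replicate 2 it was 0.053.

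Introns of 25 of the 73 main copies (34.2%) held 64 annotated snoRNA genes on the same strand, the small RNAs that guide rRNA modification, against 0.656% of 11131 tested protein-coding genes and 0 of 13 tested duplicates. RpS7 held 7 snoRNA genes and RpS16 held 5. Main copies hosting snoRNAs had a median log2 change of -0.059, beside -0.052 for the other 48. The snoRNAs themselves were not analysed here. Annotated exons had a median length of 944 nt in main copies and 666 nt in duplicates, with overlapping ranges of 288 to 3835 nt and 304 to 1232 nt, and neither difference in gene structure was tested. The genes were spread over all chromosome arms, with 12 main copies and RpS14b on the X, 18 members on 2L, 19 on 2R, 13 on 3L, 23 on 3R and RpS3A on chromosome 4. Exons of 23 members overlapped a gene on the opposite strand. Not all of these opposite-strand genes were tested, and limma called 2.22% of all tested genes. Beside Dtd, limma called 1 such gene, CG17272, chosen after its values were seen, which shares 44 bases with RpS20. CG17272 fell from 21.1 ± 1.44 to 15.2 ± 0.689 FPKM (SD, n = 3 each; log2 change -0.45; limma, adjusted p = 0.0209; voom 0.0276). This call was kept in 1 of 6 fits without a library, that without overexpressing replicate 2 (0.0279; at most 0.0865), and lost with replicate number as a block (0.0588). RpS20 stood at 858, 895 and 851 FPKM in controls and at 827, 784 and 894 FPKM in overexpressing libraries, with overlap.

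Genes that make or use ribosomes mostly did not pass the test. The lists named 60 genes of ribosome assembly and rRNA transcription, 45 of translation initiation and 12 of elongation and release. Of these lists, 45, 44 and 9 genes were tested. Limma called 0 of them in either direction, against 2.22% of all tested genes, and voom called 0, against 3.73%. At an unadjusted p under 0.05 limma had 3, 2 and 2 of them, against 15.7% of all tested genes. Non1, a GTPase gene of large-subunit assembly, stood at 295 ± 19.0 and 291 ± 35.5 FPKM, and Nop17l at 30.9 ± 0.945 and 30.2 ± 1.07 FPKM. The helicase eIF4A, an initiation factor, stood at 484, 513 and 480.1 FPKM in controls and at 489, 447 and 494 FPKM in overexpressing libraries, and the poly(A)-binding protein gene pAbp at 333 ± 13.0 and 331 ± 16.3 FPKM. Elongation factor eEF2 stood at 906, 946 and 889.8 FPKM against 895, 826 and 905 FPKM, highest and lowest in the same libraries as the main copies, and Tctp at 538 ± 19.6 and 508 ± 30.1 FPKM (SD, n = 3 each). The elongation list had a median log2 change of -0.08 with 7 of 9 below 0, the assembly list -0.002 and the initiation list -0.01.

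Thor was the 1 of 22 tested TOR and Myc growth control genes (28 listed) that limma called, higher in the overexpressing flies. Limma called 0.844% of all tested genes higher. Voom also called 1 gene of the list higher. Thor encodes the protein that binds the cap-binding factor eIF4E1 and represses initiation, and TOR signalling inactivates that protein. Thor rose 1.77-fold, from 303, 345 and 300.4 FPKM to 642, 433 and 605 FPKM (log2 change 0.80 ± 0.14 SE; limma, adjusted p = 0.0369; voom 0.00306). Each overexpressing library lay above each control, with replicate 2 the lowest of the 3. The call was kept without overexpressing replicate 2 (0.00183) and lost when any of the other 5 libraries was left out (at most 0.129) and with replicate number as a block (0.0980). The list's median was 0.04.

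Among 8 tested genes (15 listed) of the Xrp1 response and of stalled ribosomes limma and voom called 0. At an unadjusted p under 0.05 limma had 2 of the 8, against 15.7% of all tested genes. Rack1, a ribosome-bound scaffold protein gene, stood at 530.0 ± 2.89 and 501 ± 20.5 FPKM, and crc, the ATF4 homologue, at 248 ± 2.94 and 229 ± 3.67 FPKM (SD, n = 3 each; limma, adjusted p = 0.512 and 0.295). Among 11 transcription factors linked to ribosomal protein promoters limma and voom called 0, with 0 at an unadjusted p under 0.05 by limma. TfIIA-L stood at 44.6 ± 0.373 and 42.6 ± 1.15 FPKM and Taf4 at 19.6 ± 0.274 and 19.3 ± 0.535 FPKM.

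Tissue marker lists were read beside these counts. Limma and voom called 0 of 22 testis germ line markers (1 at an unadjusted p under 0.05). Mst84Db stood at 724 ± 34.6 and 715 ± 50.9 FPKM and Mst87F at 603 ± 33.1 and 605 ± 36.9 FPKM. Of 3 tested early germ line markers limma and voom called 0 (0 unadjusted), with bgcn at 5.97 ± 0.665 and 6.46 ± 0.473 FPKM and aub at 2.71 ± 0.307 and 2.48 ± 0.0632 FPKM. Of 7 ovary and female markers Yp3 alone passed the filter on low values, and it fell from 32.4 ± 1.04 to 9.04 ± 1.49 FPKM (adjusted p = 0.000441). Of 5 fat body markers 2 fell by limma and by voom: fat-spondin from 34.8 ± 1.06 to 24.8 ± 0.730 FPKM (adjusted p = 0.00668) and Apoltp from 22.4 ± 1.71 to 17.0 ± 0.909 FPKM (adjusted p = 0.0485, called in 1 of 6 fits without a library). At an unadjusted p under 0.05 there were 4 of the 5, and all 5 lay below 0 (median log2 change -0.473). With no filter, with either rescaling and with the replicate block limma called 1 of them lower. Summed levels ran from 154 to 195 FPKM in controls and from 102 to 140.3 FPKM in overexpressing libraries for the fat body list. Limma called 0 of 4 muscle markers (0 unadjusted, voom 0) and 0 of 5 midgut markers (1 unadjusted, voom 1 higher). The muscle list summed to between 715 and 969 FPKM in controls and between 864 and 952 FPKM in overexpressing libraries, and the midgut list to between 5338 and 6331 FPKM and between 5684 and 6763 FPKM. The muscle gene up stood at 341 ± 41.3 and 375 ± 5.57 FPKM and Act88F at 190.0 ± 54.1 and 199 ± 38.7 FPKM. The midgut proteases alphaTry and Jon65Aiv stood at 2918 ± 127 and 3065 ± 98.7 FPKM and at 1720.1 ± 298 and 1610.1 ± 94.6 FPKM (SD, n = 3 each). The part of tissue content in the ribosomal protein values was not tested.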

How the data were processed

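Poly-A RNA of 6 libraries was sequenced as paired ends, and, per the labels' protocols, aligned with HISAT2 2.0.5 and counted with featureCounts 1.5.0-p3. Per the submitters' processing notes, reads were placed on dm6. The authors deposited FPKM per gene and library; how these were made from counts is not stated. FPKM times exon length was a whole multiple of 1 step per library (tolerance 0.01 reads) for 15276 of 15918 genes above 0 (96.0%). For the other 642, among them RpL23A and RpL26, the shortest length that gave whole reads in all 6 libraries was fitted. Where that is shorter than the true length, the gene's recovered reads and voom input are too low, and shares of reads are affected.

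Groups were compared with limma 3.58.1 (R 4.3.3; trend, two-sided) on log2(FPKM + 1), Benjamini-Hochberg over the 12326 genes with FPKM of at least 1 in at least 3 libraries, threshold 0.05. Log2 changes understate those of low genes. Voom on recovered reads was an alternative. Scripts were tested on simulated data. Coordinates are those of the annotation, BDGP6 (dm6). No FASTA was used, and promoter motifs were not analysed.

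The rule for named genes took members called by limma, the 10 largest changes without overlap, the 5 most abundant, all families, members below the filter, and, from each of 12 lists, up to 4 called or the 2 most abundant genes. Other genes were chosen after values were seen. Members and lists were chosen with earlier results of these data known, and the role groups after values were seen. A pair of members enters the counts and medians but is not reported here by name or plotted.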

Additional observations from a re-analysis of the deposited data

How the results depend on the processing

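Under all 12 alternatives run (pseudocount 0.1, no filter, rescaling to a sum of 1000000, rescaling by the median ratio of other genes, voom, a replicate block, and leaving out each of 6 libraries) limma or voom called 0 members higher and 0 lower. The lowest member adjusted p ranged from 0.142 to 0.411 over them. Without 1 library, the median log2 change of the duplicates ranged from 0.036 to 0.127, that of the main copies from -0.087 to -0.020 and that of all members from -0.079 to -0.017, with 54 to 74 members below 0. Rescaling to a sum of 1000000 moved the median of all genes to 0.023, that of the main copies to -0.031 and the members below 0 from 70 to 55. Among the members followed singly in the alternatives, RpL34b, RpS19a, RpS14b and RpL22 changed sign there, at 0.00, 0.02, 0.00 and 0.01. The other members that changed sign are not listed here. Without 1 library RpL10Aa ranged from -0.01 to 0.07, RpL34b from -0.03 to 0.00, RpL37-2 from -0.10 to 0.19, RpS19a from -0.06 to 0.06, RpS14b from -0.07 to 0.02 and RpL22 from -0.04 to 0.02; the cause was not tested. Replicate numbers did not pair the libraries (correlations of deviations -0.0528, -0.185 and 0.0327), and with the replicate block 0 members were called and 110 of 12326 genes were called where 274 were without it. The median was -0.050 with the block, which cannot move it in this balanced design. The alternative window for promoter motifs was not run, since no promoter sequence was used here. The count of called genes in all ranged from 70 to 431 without 1 library, with the low end when control replicate 2 and the high end when overexpressing replicate 2 was left out, and voom called 460. Family shares were also taken as shares of reads, which are not corrected for length. In proportion, the lower copies of RpL37, RpS28 and RpS19 moved most, from 2.20% to 0.727%, from 3.40% to 1.25% and from 5.37% to 2.93%. In percentage points, those of RpS14, RpL24 and RpL34 moved most, from 34.4% to 26.3%, from 30.6% to 21.2% and from 23.5% to 17.1%. RpS28a and RpL37-2 rested on few reads (108 and 297 in all controls).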
